A study of Equus caballus with 2 samples.

Results

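Transcripts of 10 feedback genes of the mitogen-activated protein kinase (MAPK) cascades were measured in cultured equine endometrial fibroblasts with and without TGF-β1. They are 5 dual-specificity phosphatase genes (*DUSP1*, *DUSP4*, *DUSP5*, *DUSP6* and *DUSP10*), 3 Sprouty genes (*SPRY1*, *SPRY2* and *SPRY4*) and 2 Sprouty-related genes (*SPRED1* and *SPRED2*). They were chosen by symbol, and all 10 were found among the 21426 genes listed for both libraries. The fibroblasts, at passage 3, came from 4 mares with healthy or mildly fibrotic endometria and were grown on hydrogels coated with collagen, with serum replaced by 0.1% bovine serum albumin during the treatment. The control received nothing else, the treated cells received 10 ng/ml human recombinant TGF-β1, and both were harvested after 24 h with trypsin and made into 3′ single cell libraries. Cells of the 4 mares were pooled before loading, so that each condition is 1 library, and the cells treated with MFGE8 were not analysed here. There is no replicate and no test was made, and the condition cannot be told apart from the preparation of its library.

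A growth factor receptor activates RAS, which activates RAF, MEK and the kinase ERK. ERK switches on target genes, and DUSP, SPRY and SPRED genes are among them, so that their products hold the pathway back in a negative feedback loop. Dual-specificity phosphatases remove phosphate from the MAPKs themselves, whereas Sprouty and SPRED proteins act further upstream, between the receptor and RAF. The related kinases p38 and JNK respond to stress and cytokines, and TGF-β1, the main profibrotic growth factor, signals through SMAD proteins and also engages the MAPK cascades in fibroblasts.

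In these libraries a transcript is counted once, by its unique molecular identifier (UMI), however often it was amplified. The analysis kept cells of 20000 or more UMIs and 3500 or more genes whose mitochondrial share, over 13 genes, was under 4%, which left 3865 of 4384 control barcodes and 4513 of 5124 TGF-β1 barcodes. The kept cells held 210497250 and 219731144 UMIs, with a median of 50313 and 43142 per cell, and 2 of their barcodes occurred in both libraries. The 7 fibroblast markers summed to 19566 counts per 1000000 UMIs (CPM) in the control and 19983 CPM after TGF-β1, and *VIM*, *COL1A1*, *COL1A2* and *COL3A1* were found in 100% of cells of both. Within that sum the 3 collagen genes were higher in the TGF-β1 library, whereas *VIM* (4399 and 2240 CPM, log2 ratio -0.97), *THY1* (215.5 and 87.5 CPM, -1.30) and *PDGFRB* (80.1 and 49.0 CPM, -0.71) were lower. *EPCAM*, *CDH1*, *PECAM1*, *CDH5* and *PTPRC*, which define epithelial, endothelial and immune cells, were each at or under 0.0428 CPM. The 5 epithelial markers found summed to 133.7 CPM in the control and 11.8 CPM in the TGF-β1 library, of which the keratin gene *KRT8* made up 114.3 and 4.48 CPM. The 4 endothelial markers summed to 0.784 and 0.41 CPM, the immune markers to 56.6 and 52.9 CPM, mostly from *CD68*, and the 4 pericyte or smooth muscle markers to 746.6 and 657.4 CPM, mostly from *DES*.

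The 10 transcripts differed in direction. *DUSP6*, *DUSP1*, *DUSP5* and, slightly, *SPRED1* were lower in the TGF-β1 library, *DUSP4*, *DUSP10* and *SPRED2* were higher, and the 3 Sprouty transcripts differed by less than their counting error. The largest difference was that of *DUSP6*, at 1.91-fold lower, so that 0 of the 10 members passed 2-fold. Among all genes averaging 1 CPM or more, as all 10 members did, 6.91% of 12116 passed that limit. At 1.5-fold, 1 member was lower, *DUSP6*, against 9.36% of all genes, and 0 were higher, against 7.64%. Over the members, the median log2 ratio of the treated to the control level was -0.03, and -0.01 over all genes of at least 1 CPM, and the median size of the log2 ratio was 0.32 and 0.23. Ratios carry a 95% exact binomial (Clopper-Pearson) interval that covers counting error only, not the difference between cells, between mares or between cultures. It treats UMIs as independent draws. It is thus too narrow for transcripts that vary more between cells than such draws would, *DUSP1* most of all. The interval lay above 0 for 3 members, against 39.5% of all genes, and under 0 for 4 members, against 42.2%, or 7 of 10 against 81.7% together, so such an interval alone does not set a member apart.

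**Figure D1:**
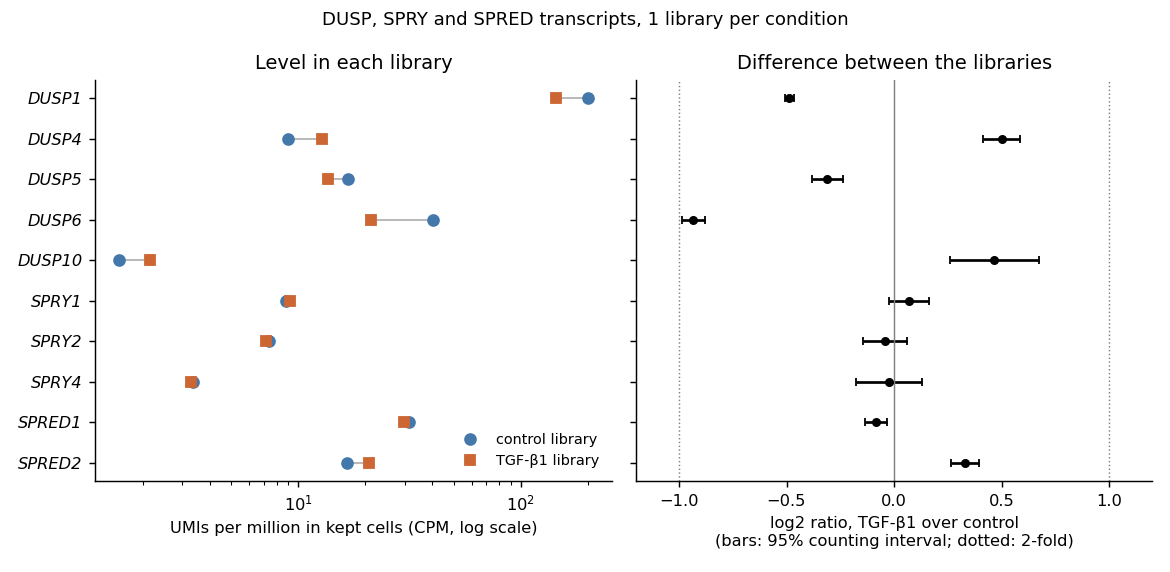
Level of each member in CPM on a log axis in the control library (circles) and the TGF-β1 library (squares), and the log2 ratio of the TGF-β1 to the control level with its 95% counting interval. *DUSP6* at -0.93 lies closest to the dotted 2-fold line, and the intervals of *SPRY1*, *SPRY2* and *SPRY4* cross 0.

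*DUSP6* (ENSECAG00000037937) encodes the cytoplasmic phosphatase that acts on ERK with high selectivity, and its transcript is widely used as a readout of ERK activity. It had 8493 UMIs, or 40.4 CPM, in the control library and 4645 UMIs, or 21.1 CPM, in the TGF-β1 library. The log2 ratio was -0.93 (interval -0.98 to -0.88), the lowest of the 10. *DUSP5* (ENSECAG00000013514) encodes a nuclear phosphatase that is also selective for ERK. It had 16.8 CPM in the control and 13.5 CPM after TGF-β1 (log2 ratio -0.31, interval -0.38 to -0.24). The direction was thus that of *DUSP6*, with a smaller difference. *DUSP4* (ENSECAG00000004592), another nuclear phosphatase, which acts on ERK and JNK, had the opposite direction. It had 8.99 CPM (1892 UMIs) in the control and 12.7 CPM (2792 UMIs) after TGF-β1 (log2 ratio 0.50, interval 0.41 to 0.58).

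*DUSP1* (ENSECAG00000009958) encodes a nuclear phosphatase for p38, JNK and ERK and is itself an immediate early gene, transcribed within minutes of serum, stress or handling of cells. It was by far the most abundant member, with 201.2 CPM (42362 UMIs) in the control and 143.5 CPM (31526 UMIs) after TGF-β1 (log2 ratio -0.49, interval -0.51 to -0.47). *DUSP10* (ENSECAG00000010347), whose product prefers p38 and JNK, was the least abundant. It had 328 UMIs (1.56 CPM) in the control and 473 UMIs (2.15 CPM) in the TGF-β1 library, and the log2 ratio of 0.47 has a wide interval, from 0.26 to 0.67.

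Sprouty proteins are induced by growth factors and restrain signalling from receptor tyrosine kinases to RAS and RAF. *SPRY1* (ENSECAG00000013746) had 8.76 CPM in the control and 9.18 CPM in the TGF-β1 library (log2 ratio 0.07, -0.02 to 0.16). *SPRY2* (ENSECAG00000002250) had 7.37 and 7.15 CPM (-0.04, -0.15 to 0.06), and *SPRY4* (ENSECAG00000005384) had 3.36 and 3.30 CPM (-0.02, -0.18 to 0.13). Over all kept cells the 3 intervals contain 0, and none reaches a log2 difference beyond 0.18 in size. SPRED proteins bind neurofibromin and bring it to RAS, which it inactivates. *SPRED1* (ENSECAG00000008623) had 31.5 CPM in the control and 29.7 CPM in the TGF-β1 library (-0.08, -0.13 to -0.03). *SPRED2* (ENSECAG00000005881) had 16.6 and 20.8 CPM (0.33, 0.26 to 0.39). Over all kept cells *SPRED1* was thus 1.06-fold lower and *SPRED2* 1.25-fold higher, but the small difference of *SPRED1* depended on the cells compared. Its log2 ratio was -0.03 without the cells holding at least 3 cycling markers, and in cells of 35000 to 60000 UMIs it had the other sign, at 0.01 (-0.05 to 0.08).

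The order of the levels was similar in both libraries, with *DUSP1* first and *SPRY2*, *SPRY4* and *DUSP10* last. These are UMIs of 3′ tags, not divided by transcript length, and the share of transcripts captured may differ between genes. In the control library *DUSP6* came second, followed by *SPRED1*, *DUSP5*, *SPRED2*, *DUSP4* and *SPRY1*. Of these neighbours, *DUSP5* and *SPRED2* did not differ beyond their exact Poisson intervals (16.2 to 17.3 and 16.0 to 17.2 CPM), nor did *DUSP4* and *SPRY1* (8.59 to 9.40 and 8.36 to 9.17 CPM). In the TGF-β1 library *SPRED1* came second, *DUSP6* (20.5 to 21.8 CPM) and *SPRED2* (20.2 to 21.4 CPM) were indistinguishable, and *DUSP5* (13.1 to 14.0 CPM) and *DUSP4* (12.2 to 13.2 CPM) overlapped.

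The level of a transcript can differ because more cells hold it or because each cell holds more. To compare cells at the same depth, 20000 UMIs were drawn at random from each kept cell, which is called thinning here. At least 1 *DUSP6* UMI then occurred in 47.1% of control cells (1820 of 3865, interval 45.5% to 48.7%) and in 31.4% of TGF-β1 cells (1415 of 4513, 30.0% to 32.7%). Without thinning the shares were 73.3% and 53.5%. At least 2 *DUSP6* UMIs were found in 19.7% and 8.49% of thinned cells, and the highest count in a cell was 10 and 7. The cells with no, 1 and more UMIs thus all shifted, and no group of cells with very high *DUSP6* stood apart in either library.

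*DUSP4* was found in 13.8% of control (12.7% to 14.9%) and 21.5% of TGF-β1 cells (20.3% to 22.7%), *SPRED2* in 24.7% (23.4% to 26.1%) and 31.4% (30.1% to 32.8%), and *DUSP10* in 2.38% (1.92% to 2.91%) and 3.55% (3.03% to 4.13%). These 3 shares were higher in the TGF-β1 library with intervals apart, as they were for 27.7% of all genes of at least 1 CPM. The shares of *DUSP1*, 85.2% (84.0% to 86.3%) and 80.5% (79.3% to 81.7%), and of *DUSP6* were lower with intervals apart, as they were for 25.8% of all genes. The intervals of the other 5 members overlapped. *DUSP5* was found in 23.7% and 21.5% of cells, *SPRED1* in 43.7% and 40.8%, *SPRY1* in 15.1% and 15.3%, *SPRY2* in 12.5% and 12.4%, and *SPRY4* in 5.67% and 6.47%. Unthinned, the shares of *SPRY4* were 14.4% in the control and 13.5% in the TGF-β1 library, so its order depends on depth. No cell type that should lack these genes was present, so that UMIs from free RNA could not be measured, and the lowest shares may hold some.

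**Figure D2:**
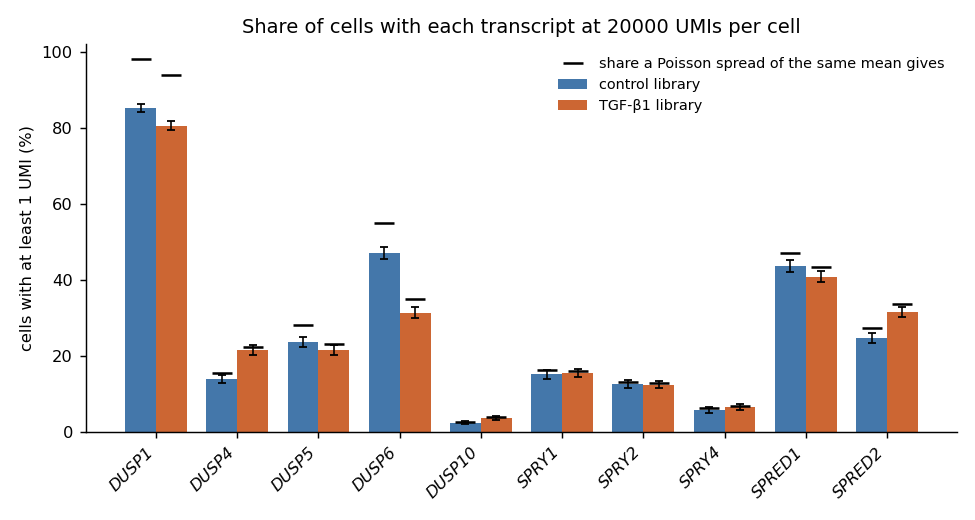
Percentage of cells with at least 1 UMI of each member after thinning to 20000 UMIs, with exact 95% binomial intervals, in 3865 control and 4513 TGF-β1 cells. The black marks give the share that a Poisson spread of the same mean would give, and all bars lie under them, for example *DUSP1* at 85.2% against 97.9% in the control and 80.5% against 93.8% in the TGF-β1 library.

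The spread of the UMIs over cells was also compared. If every cell held the same expected number, the counts would follow a Poisson distribution, in which variance equals the mean. For *DUSP1* the variance over the mean was 3.75 in the control and 2.87 after TGF-β1, with a median of 3 and 2 UMIs per thinned cell, a 90th percentile of 9 and 6 and a maximum of 38 and 24. At 12 or more *DUSP1* UMIs there were 4.79% of control and 1.68% of TGF-β1 cells, while 14.8% and 19.5% of cells had none. *DUSP6* had a variance over the mean of 1.58 and 1.30, and *DUSP5* 1.54 and 1.22. The SPRY and SPRED members lay between 1.08 and 1.28 in both libraries, close to a Poisson spread. This measure rises with the mean, and *DUSP1* is by far the most abundant member. The tenth of cells with the most UMIs held 31.9% of the *DUSP1* UMIs in the control, and in both libraries this share was the smallest among the 10. The difference between the libraries was seen at both ends of the *DUSP1* distribution.

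**Figure D3:**
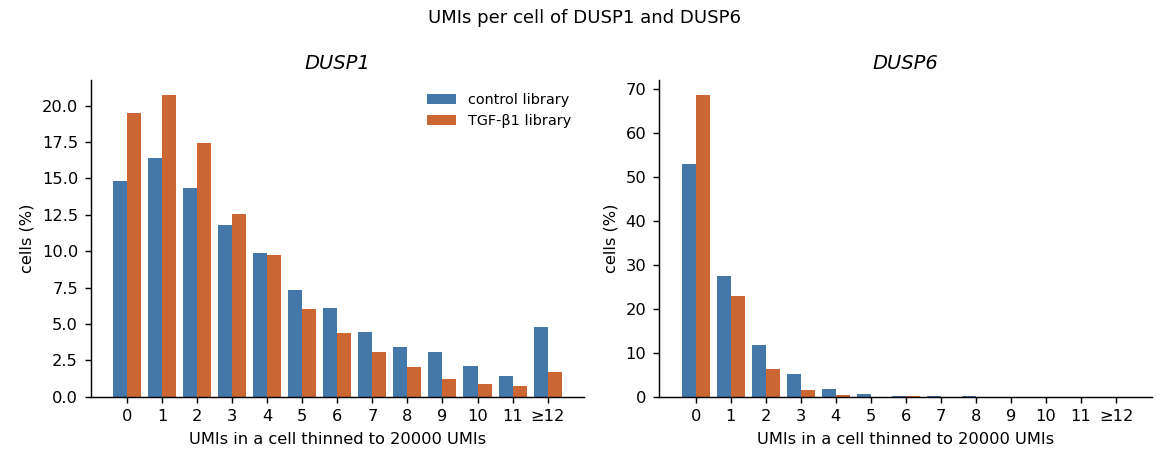
Percentage of cells with each number of *DUSP1* (left) and *DUSP6* (right) UMIs after thinning to 20000 UMIs per cell, in the control and TGF-β1 libraries, with 12 or more UMIs in the last bin. Cells without a UMI made up 14.8% and 19.5% for *DUSP1* and 52.9% and 68.7% for *DUSP6*.

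To see whether members occurred in the same cells, the number of thinned cells with both members of a pair was compared with the product of their shares. Of the 45 pairs, 41 had an expected number of at least 20 cells in both libraries. Among them 29 lay above the product in the control library, 26 in the TGF-β1 library and 21 in both. The median log2 of observed over expected was 0.028 and 0.021, and the medians of each member with the genes of at least 10 CPM lay between 0.00 and 0.02. The exact interval of the observed share lay apart from the product in 0 pairs of the control library and in 1 pair of the TGF-β1 library, *SPRED1* with *SPRED2* (634 cells against 577.8 expected, a pair named with its value known). This interval does not hold the single shares of the members fixed, so it is too wide for pairs of common members. A pair whose interval contains the product may therefore still depart from it. Member by member, the median with other members was above the median with other genes for 9 of 10 in the control (for example *SPRY4* 0.089 against 0.017, *SPRY1* 0.073 against 0.0011 and *DUSP4* 0.060 against 0.012) and for 6 of 10 in the TGF-β1 library (*SPRY4* -0.019 against 0.0061).

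Among the 41 pairs, those with the highest mean over both libraries were *SPRY2* with *SPRY4* (36 control cells against 27.3 expected, 42 TGF-β1 cells against 36.2), *DUSP10* with *SPRED2* (29 against 22.7 and 51 against 50.3), *DUSP5* with *DUSP10* (23 against 21.8 and 41 against 34.4), *SPRY4* with *SPRED2* (61 against 54.1 and 101 against 91.8) and *DUSP4* with *DUSP5* (147 against 126.3 and 213 against 208.1). The lowest were *DUSP6* with *DUSP10* (40 against 43.3 and 41 against 50.2), *DUSP5* with *SPRY2* (105 against 113.7 and 113 against 120.2) and *DUSP6* with *SPRY4* (98 against 103.1 and 84 against 91.6). Each of these observed shares had an interval that contained the product, with the limit of that interval given above. A thinned cell held a median of 3 of the 10 members in both libraries, and 5 or more were held by 8.18% of control cells (7.22% expected from the single shares) and 7.47% of TGF-β1 cells (6.90% expected). Without thinning, 42 of 45 pairs lay above the product in both libraries, a count in which the depth of the cells is not held equal.

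**Figure D4:**
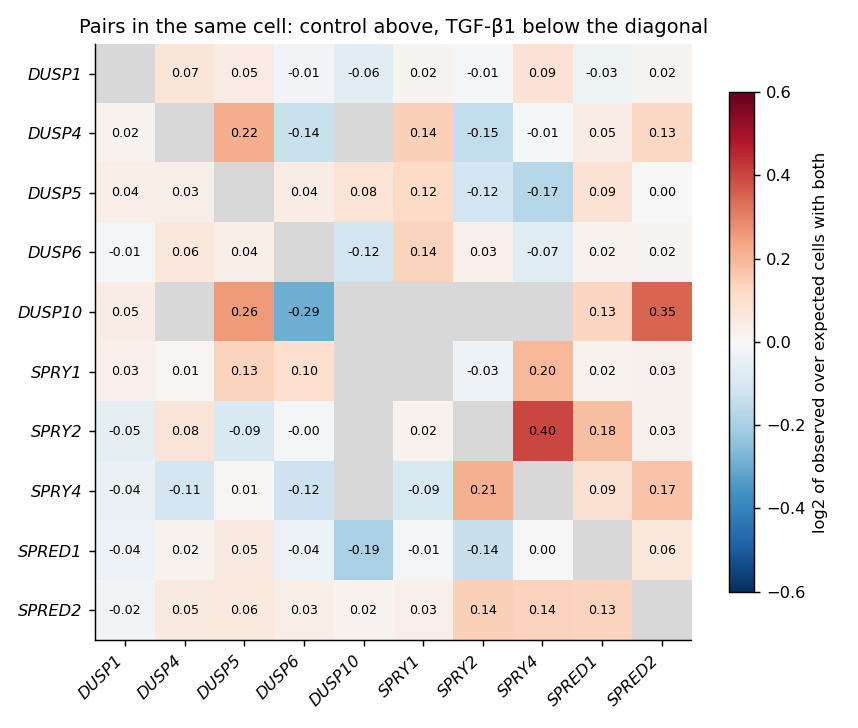
Log2 of the observed over the expected number of cells with both transcripts, for the control library above the diagonal and the TGF-β1 library below it, in cells thinned to 20000 UMIs. Grey pairs had fewer than 20 expected cells in a library, and the highest value is 0.40 for *SPRY2* with *SPRY4* in the control.

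Across thinned cells, *DUSP1* was the only member whose log-scaled counts correlated at Pearson r of 0.2 or more with another gene in both libraries, among genes found in at least 10% of cells. This is a description over 3865 and 4513 cells that share a library. The leading genes were *ID1* (r = 0.369 in the control and 0.231 in the TGF-β1 library), *ID3* (0.269 and 0.207), both inhibitors of basic helix-loop-helix factors and targets of BMP signalling, and the nuclear receptor gene *NR4A1* (0.252 and 0.211). The levels of these 3 genes differed between the libraries in unlike ways, with *ID1* at 602.4 and 486.6 CPM, *ID3* at 590.2 and 599 CPM and *NR4A1* at 88.3 and 38.1 CPM. With the 20 immediate early and stress genes of the list described further on, the median r of *DUSP1* was 0.0771 and 0.0761, and 16 of the 20 had an r above 0 in both libraries. For *DUSP1* with 8140 other genes, the median of the mean r over both libraries was -0.0017. Its r with *DUSP6* was -0.082 and -0.026. For the other 7 members measured in this way the highest mean r with any gene lay between 0.0572 and 0.153, and *DUSP10* and *SPRY4* were in too few cells. Such weak values in sparse counts are no finding.

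The ratios were also taken within groups of cells defined by other genes. These groups overlap, were set in thinned cells, and are cells with or without a UMI of *KRT8*, of *VCAM1* (an adhesion molecule), of *AREG* (an EGF receptor ligand) or of *IGFBP3* (an IGF binding protein), cells above the 75th percentile of *CFD* (complement factor D) UMIs (22.2% and 15.4% of cells, because of ties) or of the summed contractile genes *ACTA2*, *TAGLN*, *CNN1*, *MYL9* and *TPM2* (24.9% of control cells), and cells with at least 3 S phase or G2/M markers. The most contractile cells made up similar shares of both libraries (24.94% of control and 24.99% of TGF-β1 cells). Cells with S phase markers made up 16.14% and 18.06%, and those with G2/M markers 12.86% and 16.8%. The groups with a UMI of *KRT8*, *VCAM1*, *AREG* or *IGFBP3* differed strongly in size between the libraries. *KRT8* was detected in 25.4% and 3.52% of control and TGF-β1 cells, *AREG* in 4.92% and 23.1%, *IGFBP3* in 5.56% and 39.6%, and *VCAM1* in 4.42% of control but only 2 TGF-β1 cells, too few for a value. *DUSP6* was lower in the TGF-β1 library in 15 of 15 groups with intervals under 0, and its log2 ratio ran from -1.20 to -0.66. *DUSP1* was lower in 15 of 15, from -0.63 to -0.37. *DUSP4* was higher with the interval above 0 in 13 of 15, from 0.33 to 0.97, and *SPRED2* in 13 of 15, from 0.07 to 0.47. *DUSP5* was lower with the interval under 0 in 13 of 15 (-0.43 to 0.06) and *SPRED1* in 11 of 15 (-0.35 to 0.08). *DUSP10* was higher with the interval above 0 in 10 of 15 and ran from -0.80 in the cells with *AREG* (-1.76 to 0.28) to 1.30 in those with *KRT8* (-0.09 to 2.55). The Sprouty intervals contained 0 in most groups, but *SPRY4* was at 1.07 (0.23 to 1.84) in cells with *KRT8* and *SPRY1* at -0.59 (-1.05 to -0.11) in cells with *AREG*. The 15 groups are the cells inside and outside each of the 8 definitions, without the *VCAM1* cells. The cells outside a definition hold most of each library, so these counts largely repeat the ratios over all kept cells. They are not separate results, and no such count over all genes is given here. The shorter G2/M list without *NUSAP1*, *AURKA* and *UBE2C*, added after seeing the data, left 83 control and 72 TGF-β1 cells inside in place of 497 and 758. In these few cells *DUSP6* was at -0.82 (-1.46 to -0.19) and *DUSP5* at -0.83 (-1.63 to -0.06). The intervals of *DUSP1* (-0.13, -0.40 to 0.14), *DUSP4* (-0.02, -1.01 to 0.96) and *SPRED2* (0.04, -0.68 to 0.76) contained 0 there.

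The lowest *DUSP6* ratio was that of cells with an *AREG* UMI, at -1.20 (-1.45 to -0.94) against -0.88 (-0.97 to -0.79) in cells without. Among control cells, *DUSP6* was at 48.7 CPM with and 39.4 CPM without *AREG*, a log2 ratio of 0.30 (0.08 to 0.52, or 0.20 without thinning), and among TGF-β1 cells at 21.2 and 21.5 CPM, a log2 ratio of -0.02 (-0.17 to 0.14). *DUSP4* was at 7.63 and 8.45 CPM in control cells with and without *AREG*, with an interval of the log2 ratio that contains 0 (-0.15, -0.74 to 0.39), and at 14.9 and 11.9 CPM in TGF-β1 cells, where the log2 ratio was 0.33 (0.14 to 0.52, or 0.17 without thinning). *SPRED2* was nearly level between the libraries among the most contractile cells, at 14.6 and 15.3 CPM (log2 ratio 0.07, -0.17 to 0.30), and higher in the TGF-β1 library in the remaining cells, at 16.4 and 22.3 CPM (0.44, 0.32 to 0.56).

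Of 150 ratios of a member between a group and the remaining cells of its library, 7 were past 1.5-fold with an interval apart from 0. Over all genes averaging 1 CPM or more, 4.16% of 181567 such ratios did so, so the members' share was close to the background. Without thinning, 3 of the 7 remained past 1.5-fold. They were those of *DUSP10* and *SPRY1* in control cells with *AREG* and of *DUSP10* in the most contractile control cells (0.76 without thinning). *SPRY2* was lower in the most contractile cells of both libraries, at 4.88 CPM against 7.81 CPM in the control (log2 ratio -0.68, -1.02 to -0.36) and 4.97 against 7.53 CPM in the TGF-β1 library (-0.60, -0.91 to -0.30), and without thinning the log2 ratios were -0.56 and -0.42. *SPRED1* was lower there too, at 23.8 against 34.4 CPM (-0.53) and 21.1 against 31.0 CPM (-0.55), as was *SPRY4* (-0.55 and -0.50). *SPRED2* was lower there in the TGF-β1 library, at 15.3 against 22.3 CPM (-0.55, -0.72 to -0.38). In the control the *SPRED2* interval contained 0 (-0.17, -0.37 to 0.02). *SPRY1* had the other direction, at 0.47 (0.24 to 0.71) in the control and 0.20 (-0.03 to 0.43) after TGF-β1. So had *DUSP1*, at 0.09 (0.04 to 0.14) in the control and 0.24 (0.19 to 0.30) after TGF-β1. *DUSP10* was higher there, with log2 ratios of 0.83 (0.19 to 1.45) and 0.50 (0.02 to 0.97) that rest on 36 and 57 UMIs. *DUSP6* differed little between the most contractile and the remaining cells (0.08 and 0.11, both intervals containing 0). The other ratios past 1.5-fold were those of *DUSP10* and *SPRY1* in control cells with *AREG* (1.45 from 12 UMIs, and 0.60 from 50 UMIs, or 0.83 and 0.63 without thinning), of *SPRY2* in control cells with *VCAM1* (0.69 from 38 UMIs, 0.40 without thinning) and of *SPRY4* in TGF-β1 cells with *KRT8* (0.81 from 19 UMIs, 0.31 without thinning). *DUSP4* had opposite signs in the contractile cells of the libraries, at 0.13 (-0.13 to 0.38) in the control and -0.20 after TGF-β1, with an interval from -0.41 to just under 0. With the shorter G2/M list, *DUSP5* in control cells was at 0.74 (0.28 to 1.17, or 0.36 without thinning), against 0.10 (-0.14 to 0.33) with the full list.

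The other genes of the pathway, in lists of symbols, set the members beside the cascade they act on. The counts that follow cover genes averaging 10 CPM or more, of which 4.43% of 7658 passed 2-fold (2.30% upward and 2.13% downward). Of 19 other DUSP, SPRY and SPRED genes listed, 6 reached that level, 4 were higher and 2 lower in the TGF-β1 library, and 0 passed 2-fold. *DUSP16*, whose product acts on JNK and p38, was at 34.6 CPM in the control and 20.2 CPM in the TGF-β1 library (log2 ratio -0.77), the nearest to *DUSP6* in size and direction. *DUSP12* was at 19.2 and 23.4 CPM (0.29), *DUSP19* at 10.0 and 11.5 CPM (0.19) and *DUSP14* at 36.0 and 32.2 CPM (-0.16).

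Of 14 receptors and adaptors, 8 were higher and 6 lower, and 1 passed 2-fold, *PDGFRA*, the receptor for platelet-derived growth factor on fibroblasts, at 50.5 CPM in the control and 16.7 CPM in the TGF-β1 library (log2 ratio -1.60). The other PDGF receptor *PDGFRB* (80.1 and 49.0 CPM, -0.71) and the receptor tyrosine kinase gene *AXL* (82.8 and 57.1 CPM, -0.54) were lower too, and the RAS exchange factor gene *SOS2* was higher (17.5 and 22.5 CPM, 0.36). Of 17 genes of the RAS, RAF, MEK and ERK cascade, 9 were higher and 8 lower, 0 passed 2-fold and the median was 0.02. The RAS-family gene *MRAS* (64.0 and 105.2 CPM, 0.72), the ERK-activated kinase gene *RPS6KA2* (129.8 and 209.4 CPM, 0.69), *MAP2K1*, which encodes MEK1 (44.7 and 71.6 CPM, 0.68), and *NRAS* (35.5 and 48.3 CPM, 0.44) differed most. All of these were higher in the TGF-β1 library, opposite to *DUSP6*.

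In the p38 and JNK cascade, 8 of 12 genes were higher and 4 lower, with 0 past 2-fold and a median of 0.09. The p38 activator gene *MAP2K3* (53.8 and 80.8 CPM, 0.59), *MAPK8*, which encodes JNK1 (81.7 and 109.6 CPM, 0.42), *MAPKAPK2*, a kinase downstream of p38 (47.7 and 61.7 CPM, 0.37), and *MAP3K7*, which encodes TAK1 and links the TGF-β receptor to p38 and JNK (36.9 and 28.2 CPM, -0.39), differed most. Of 15 other negative regulators, 7 were higher and 8 lower, with 0 past 2-fold. Here *SOCS3*, an inhibitor of cytokine signalling (17.7 and 12.5 CPM, -0.51), and *ERRFI1*, a feedback inhibitor of the EGF receptor (90.3 and 67.0 CPM, -0.43), were lower, and *PEA15*, which keeps ERK in the cytoplasm (62.9 and 86.8 CPM, 0.46), and the ubiquitin ligase gene *CBLB* (77.1 and 102.7 CPM, 0.41) were higher.

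Among 18 transcripts known as ERK targets, 11 were higher and 7 lower, 3 passed 2-fold upward and 2 downward, and the median log2 ratio was 0.31. The EGF receptor ligand genes *EREG* (77.4 CPM in the control and 282.5 CPM in the TGF-β1 library, 1.87) and *HBEGF* (16.5 and 55.5 CPM, 1.75) were higher, and *FOS* (194 and 64.3 CPM, -1.59) and *EGR1* (174.6 and 70.9 CPM, -1.30), which are also immediate early genes, were lower. The third past 2-fold upward was the cyclin gene *CCND1* (78.9 and 176.5 CPM, 1.16). Of the ETS factor genes, *ETV1* had 16.0 and 25.2 CPM (0.65) and *ETV5* 18.5 and 24.2 CPM (0.39). *ETV4* had 4.20 and 10.2 CPM (1.28), and with a mean under 10 CPM it is not among the 18. Beside *FOS* and *EGR1*, the lower genes were *TFPI2* (-0.85), *MYC* (-0.83), *EPHA4* (-0.64), *CXCL8* (-0.44) and *FOSL1* (-0.07). *CCND1*, the ETS genes and these lower genes are named with their values known. Transcripts that are listed together as ERK targets, *DUSP6* among such genes, were therefore higher and lower in the same library.

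Of the 20 immediate early and stress genes, 16 were lower and 4 higher in the TGF-β1 library, 7 were past 2-fold downward and 0 upward, and the median log2 ratio was -0.79. Beside *FOS* and *EGR1*, the antiproliferative gene *BTG2* (41.0 and 14.9 CPM, -1.46) and the transcription factor gene *KLF4* (110.1 and 42.2 CPM, -1.38) differed most. *DUSP1*, an immediate early gene as well, had the direction of this list but a smaller difference (-0.49). The part that this list, which also responds to the handling of cells, has in the ratios of *DUSP1* and *DUSP6* was not tested. Of the proliferation lists, the 4 S phase markers of at least 10 CPM had a median of -0.08, with *TYMS* lowest (-1.12) and *RRM1* (0.44), *PCNA* (-0.37) and *MCM6* (0.21) on either side of 0. The 4 G2/M markers had a median of 0.24, from *TOP2A* (-0.67) to *UBE2C* (0.02), *NUSAP1* (0.45) and *AURKA* (0.58), but over the 13 G2/M markers of at least 1 CPM it was -0.61.

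**Figure D5:**
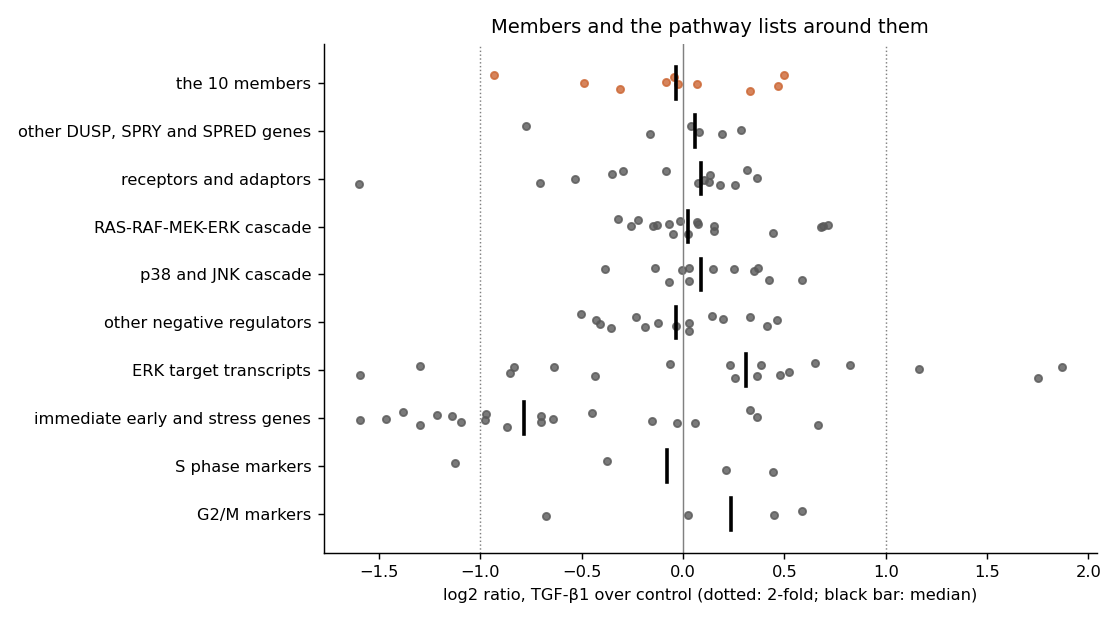
Log2 ratio of TGF-β1 over control for the 10 members and for those genes of each list that averaged 10 CPM or more, 1 point per gene, with the median as a black bar and 2-fold as dotted lines. The members spread from -0.93 to 0.50 around a median of -0.03, and the immediate early and stress genes have a median of -0.79.

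The depth of the cells differed between the libraries, so the ratios were also taken in 3 ranges of UMIs per cell, an alternative added after seeing the data. In cells of 20000 to 35000 UMIs (408 control and 1004 TGF-β1 cells), *DUSP6* was at 44.0 and 19.0 CPM, a log2 ratio of -1.21, and in the ranges of 35000 to 60000 and of 60000 or more the ratio was -0.87 and -0.95. *DUSP1* had ratios of -0.59, -0.45 and -0.44, and *SPRED2* of 0.32, 0.44 and 0.23. *DUSP4* had 0.96, 0.63 and 0.37, with control levels of 5.21, 8.26 and 10.6 CPM and TGF-β1 levels of 10.2, 12.8 and 13.7 CPM. *DUSP10* had 0.63, 0.83 and 0.05, and its interval was above 0 in the middle range only. *SPRY2* was lower in the shallowest range (-0.35, -0.68 to -0.01) and *SPRY1* higher in the middle one (0.14, 0.01 to 0.27), where their intervals did not contain 0. *SPRED1* had -0.36, 0.01 and -0.15, and its small ratio over all cells depends on which cells are compared.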

How the data were processed

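The authors deposited UMI counts per gene and cell barcode for each library, made with Cell Ranger against EquCab3.0 and Ensembl annotation 109. Version 7.1.0 is given in the methods and the submitters' processing notes, but 8.0.1 in the headers of the files. The counts are whole numbers without normalization. The cell filters of the methods were applied here. Assignment to mares and removal of doublets, for which the study used the reads, were not repeated. UMIs of kept cells were summed per library and scaled to CPM. Ratios are on the log2 scale with no pseudocount and have 95% Clopper-Pearson intervals for counting error, without a replicate or a test. Thinning used a fixed seed. Python 3.11.15, numpy 2.4.6, scipy 1.17.1, pandas 2.3.3 and matplotlib 3.10.9 were used. On simulated data for 7658 genes, 200 of 200 genes changed past 2-fold were found, with 0 false calls, and 95.1% of intervals held the true value. The simulation drew Poisson totals per library, without spread between cells or libraries, and set the changed genes well past 2-fold. It checks the calculation and does not give the accuracy for these data, where all members differed by less than 2-fold.

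The members, lists and alternatives were chosen with earlier results of these data known. The text names all members, the 4 genes of each list with the largest log2 ratio in size among genes of at least 10 CPM, up to 3 genes with r of at least 0.2 in both libraries per member, and the 5 highest and 3 lowest pairs. By symbol, 1 receptor or adaptor, 2 negative regulators, 1 ERK target, 1 immediate early, 2 G2/M and 2 epithelial genes were not found. The alternatives were all barcodes, a mitochondrial limit of 6%, a minimum of 10000 UMIs, removal of cells above the 98th percentile of UMIs or with 3 cycling markers, a median-of-ratios size factor, mean per-cell CPM, no mitochondrial genes, thinning to 10000, at least 2 UMIs, and other limits on level and fold. Ranges of depth, group ratios without thinning and a shorter G2/M list were added after seeing the data. No sequence or genome position was used, since no genome of this build was at hand.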

Additional observations from a re-analysis of the deposited data

Results flagged for a closer look

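The barcodes outside the cell filters (519 control and 611 TGF-β1 barcodes) entered the comparisons only as alternative filters. On their own, 3 of 10 members were higher there in the TGF-β1 library with intervals above 0, against 22.3% of 12067 genes. *DUSP4* was at 17.2 CPM in the control and 26.5 CPM after TGF-β1, and the log2 ratio was 0.62 (0.18 to 1.08). *SPRED2* was at 34.3 and 48.9 CPM, a log2 ratio of 0.51 (0.19 to 0.83). Both have the direction that they had in the kept cells. *SPRED1* was at 50.7 and 65.7 CPM, a log2 ratio of 0.37 (0.11 to 0.64), whereas in the kept cells it was -0.08. These barcodes had a median of 3728 and 6107 UMIs and a median mitochondrial share of 3.23% and 10.2%, and the part of that difference in the 3 ratios was not tested. In the same barcodes *DUSP6* was at 45.2 and 17.3 CPM (-1.39, -1.79 to -0.99) and *DUSP1* at 146.9 and 98.2 CPM (-0.58, -0.76 to -0.40).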

How the results depend on the processing

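No paired analysis was possible because cells were not assigned to mares here, which leaves 1 library per condition, and for the same reason no replicate could be left out. The count of members whose interval lay apart from 0 stayed between 6 and 7 under the alternatives that give one, which the mean of per-cell CPM does not, but over the ranges of depth it was not the same members (*SPRY1* and *SPRY2* each entered once, *DUSP10* left in 2 ranges and *SPRED1* in 1). The signs of *DUSP1*, *DUSP4*, *DUSP5*, *DUSP6*, *DUSP10* and *SPRED2* were kept under all 12 alternatives for the ratios, while those of *SPRY1*, *SPRY2* and *SPRY4* were not. In the shallowest range of depth (20000 to 35000 UMIs) the members' median was -0.31 in place of -0.03, and *DUSP14* had the other sign (0.093), and in the range of 35000 to 60000 UMIs *SPRED1* (0.013) and *TOP2A* (0.29) had the other sign. The causes were not tested. By construction, the count of genes past the fold limit went from 339 to 970 at 1.5-fold and to 837 with genes from 1 CPM upward, and the pairs above the product in both libraries from 21 of 41 to 42 of 45 without thinning. Leaving out cells with 3 cycling markers removed 60.6% of control and 65.8% of TGF-β1 cells, since *NUSAP1* was found in 91.8% and 96.5% of cells, so that alternative says little about cycling. Of the remaining results for single genes, shares and ratios, 472 stayed within their interval and 158 moved beyond it.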
